A study of Rattus norvegicus with 40 samples.

Results

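Glycerol channels and glycerol phosphate enzymes were followed in rat liver across 3 doses of GW7647, a synthetic agonist of the nuclear receptor PPAR-alpha. The set holds 6 genes chosen by symbol: the channels Aqp9, Aqp7 and Aqp3, the kinase Gk, and the glycerol 3-phosphate dehydrogenases Gpd1 and Gpd2. They are 6 of 13438 genes measured, and 9 of 31042 probe sets, since Gk, Gpd1 and Gpd2 have 2 probe sets each. All rats were adult male Sprague Dawley SD:CD animals with no stated genetic change. GW7647 was given by mouth once a day over 4 days, with 10 rats receiving 0.1 mg/kg, 10 receiving 1 mg/kg, 10 receiving 10 mg/kg and 10 the vehicle alone. The rats were killed 24 h after their final treatment, and each of the 40 livers was read on its own Affymetrix array.

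Glycerol is released from stored fat when lipases strip the fatty acids from triglyceride, and it crosses membranes through aquaglyceroporins, the aquaporins that also pass glycerol. Aqp7 is the channel best known from fat cells, Aqp3 from kidney collecting duct and epithelia, and Aqp9 from the hepatocyte membrane facing the blood. In the hepatocyte, glycerol kinase makes glycerol 3-phosphate, which is either acylated to build new glycerolipid or oxidised to dihydroxyacetone phosphate for glycolysis or gluconeogenesis. Gpd1 does the second step in the cytosol with NAD and can run backwards, and Gpd2 does it at the inner mitochondrial membrane and passes the electrons to the respiratory chain. The pair forms the glycerol phosphate shuttle. In mouse liver, genes of glycerol metabolism are known to depend on PPAR-alpha.

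The values are log2 expression values, and a level of 1 probe set cannot be set against that of another. The median level of an array lay between 2.44 and 2.52 in vehicle livers, between 2.42 and 2.52 in 0.1 mg/kg livers, between 2.57 and 2.63 in 1 mg/kg livers and between 2.70 and 2.73 in 10 mg/kg livers, so the scale itself moved with dose. The median change over all genes was -0.03, 0.16 and 0.26 at 0.1, 1 and 10 mg/kg against vehicle. The words rose and fell are therefore used of a gene only if limma's moderated test, with Benjamini-Hochberg adjustment over all 13438 genes and a threshold of 0.05, called it in the same direction both before and after quantile normalization of the deposited values. The mean of 24 poly-A control probe sets, which detect RNA added to each sample, was 5.57 ± 0.37 in vehicle livers, 5.84 ± 0.28 in 0.1 mg/kg livers, 6.22 ± 0.73 in 1 mg/kg livers and 6.56 ± 0.38 in 10 mg/kg livers (SD, n = 10). These controls split the 1 mg/kg arrays, with 5.25 to 5.70 in replicates 1 to 4 and 6.34 to 7.39 in replicates 5 to 10, and the labels name no batch for this. Their part in the results was not tested beyond the values given below. The livers had hepatocyte markers at the top of the scale: the mean of 7 such genes, among them albumin and transthyretin, was 12.45 to 12.65 over the 10 mg/kg livers and 12.49 to 12.58 over the vehicle livers.

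The RefSeq promoter table for build GRCr8 matched 4 of the 6 genes, Aqp3, Aqp9, Gk and Gpd2. The 250 bases before the start site are shown for one channel that rose, the channel that fell and the mitochondrial dehydrogenase that rose. Capitals mark matches, on either strand, to the GC box with the letters GGGCGG, to the TATA motif with the letters TATAAA and to the motif CCAAT. They come from chr5:61040684-61040933 (minus strand), chr8:80718189-80718438 (minus strand) and chr3:62211403-62211652 (plus strand).
Aqp3: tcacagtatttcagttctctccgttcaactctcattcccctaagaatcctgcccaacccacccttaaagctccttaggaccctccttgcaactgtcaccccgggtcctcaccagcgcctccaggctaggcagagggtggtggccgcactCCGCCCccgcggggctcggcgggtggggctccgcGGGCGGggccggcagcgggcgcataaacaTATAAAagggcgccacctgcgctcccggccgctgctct
Aqp9: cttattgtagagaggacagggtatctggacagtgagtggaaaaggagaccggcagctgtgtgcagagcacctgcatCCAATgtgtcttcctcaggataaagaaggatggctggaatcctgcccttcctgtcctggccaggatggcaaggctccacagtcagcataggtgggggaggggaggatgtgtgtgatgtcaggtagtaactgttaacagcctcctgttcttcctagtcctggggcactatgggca
Gpd2: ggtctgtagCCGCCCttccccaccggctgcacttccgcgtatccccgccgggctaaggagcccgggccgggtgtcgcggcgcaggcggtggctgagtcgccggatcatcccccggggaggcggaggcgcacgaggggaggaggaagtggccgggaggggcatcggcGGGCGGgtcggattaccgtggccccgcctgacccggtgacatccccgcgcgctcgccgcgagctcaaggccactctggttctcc
The Aqp3 window held TATAAA at 38 to 33 bases before the start and a GC box at 101 to 96 and at 67 to 62 bases before it. The Gpd2 window held 2 GC boxes and no TATAAA, and the Aqp9 window held a single CCAAT at 174 to 170 bases before the start. GC content was 65.2% for Aqp3, 54.0% for Aqp9 and 74.4% for Gpd2. Of 33465 rat promoters of that length, 12.9% held the TATA motif, 30.5% the GC box and 34.0% the CCAAT motif on either strand. The consensus bound by PPAR with its partner RXR, written here as AGGTCANAGGTCA, was in 0 of the 4 windows and in 0.0508% of all promoters. Its repeated unit AGGTCA was also in 0 of the 4 windows and in 14.1% of all promoters.

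GW7647 at 10 mg/kg was accompanied by much higher Aqp7 and Aqp3, higher Gpd2 and Gpd1, and lower Aqp9. The brighter probe set of Gk did not pass the test. Thus 4 of the 6 genes rose and 1 fell at this dose, where 20.4% of all genes rose and 7.69% fell. The same 4 rose and Aqp9 fell at 1 mg/kg, against 11.1% and 3.37% of all genes. At 0.1 mg/kg 0 of the 6 genes were called, where 0.0893% of all genes were. In whole liver, a change in how many cells express a gene cannot be told apart from a change in RNA per cell.

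**Figure D1:**
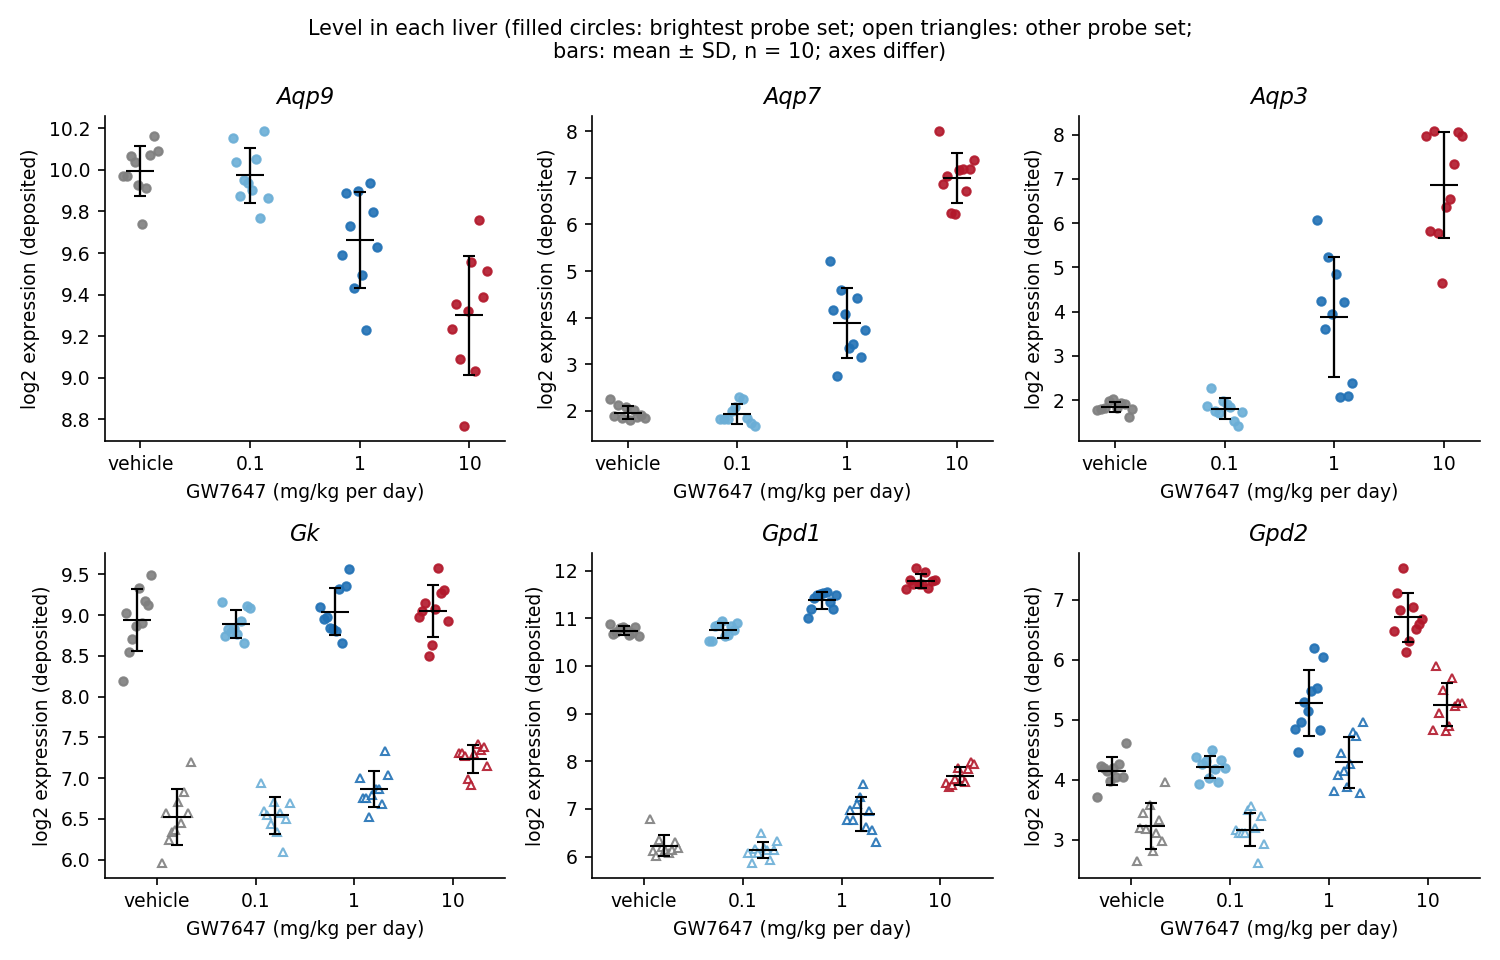
Log2 expression of each gene in each liver, by dose of GW7647 in mg/kg per day; every point is 1 rat, bars are mean ± SD (n = 10), filled circles the brightest probe set and open triangles the other one. All 1 mg/kg livers are above the vehicle livers in Aqp7, while for Aqp3 3 of them remain between 2.06 and 2.39, Aqp9 has a mean of 9.30 at 10 mg/kg against 10.00 in vehicle livers, and Gk differs between its probe sets.

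Aqp7 (probe set 1368317_PM_at) had a lowest, median and highest level of 1.80, 1.89 and 2.25 in vehicle livers, 1.67, 1.83 and 2.30 in 0.1 mg/kg livers, 2.74, 3.90 and 5.22 in 1 mg/kg livers, and 6.22, 7.10 and 8.01 in 10 mg/kg livers. The vehicle and 0.1 mg/kg livers overlapped, every 1 mg/kg liver was above every vehicle liver, and every 10 mg/kg liver was above every 1 mg/kg liver. In vehicle and 0.1 mg/kg livers, all 20 values were below the median of their array and at or under the second-highest of 23 nonspecific control probe sets. The vehicle level is therefore only an upper limit. The highest of these controls, a single probe set, averaged 4.84 in vehicle livers, and the second-highest was taken as the floor after the values were seen. Against the mean of that control in vehicle livers, 2.27, Aqp7 was at least 26.6-fold higher at 10 mg/kg and at least 3.06-fold higher at 1 mg/kg, or at least 22.0-fold and 2.66-fold after quantile normalization. Against the highest control it was at least 4.48-fold higher at 10 mg/kg (3.64-fold after quantile normalization), with no fold at 1 mg/kg. The fitted log2 change at 10 mg/kg was 5.05 (SE 0.20; limma adjusted p = 4.17e-23), which placed Aqp7 in position 9 of 13438 genes ordered by change. At 1 mg/kg it was 1.93 (SE 0.20; limma adjusted p = 1.12e-09), and at 0.1 mg/kg it was -0.02, with a 95% interval of -0.44 to 0.39.

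Aqp3 (1387100_PM_at) had a lowest, median and highest level of 1.61, 1.82 and 2.03 in vehicle livers, 1.42, 1.80 and 2.28 in 0.1 mg/kg livers, 2.06, 4.07 and 6.07 in 1 mg/kg livers, and 4.65, 6.94 and 8.08 in 10 mg/kg livers. All 20 vehicle and 0.1 mg/kg values were again below their array's median. The 1 mg/kg livers were split: replicates 7, 9 and 10, at 2.06, 2.10 and 2.39, were still under their array's median, and the other 7 were above it. Its SD was 1.36 at 1 mg/kg and 1.21 at 10 mg/kg, against 0.12 in vehicle livers. Aqp3 was at least 24.1-fold higher at 10 mg/kg (20.1-fold after quantile normalization) and at least 3.03-fold higher at 1 mg/kg (2.70-fold), and against the highest control at least 4.06-fold higher at 10 mg/kg (3.33-fold), with no fold at 1 mg/kg. The fitted log2 change was 5.01 at 10 mg/kg (SE 0.39; limma adjusted p = 5.57e-14), position 10 of 13438, and 2.02 at 1 mg/kg (SE 0.39; limma adjusted p = 6.98e-05). The change at 0.1 mg/kg was -0.04, with a 95% interval of -0.83 to 0.74. The mean change against vehicle at 1 mg/kg was 2.94 in replicates 1 to 4, where the poly-A controls were low, and 1.41 in replicates 5 to 10. With the poly-A level as a covariate, an alternative chosen after seeing the data, the change of Aqp3 at 10 mg/kg was 5.75. The same covariate gave 5.15 for Aqp7, against 5.05 without it. It made the 10 mg/kg change smaller for Gpd2 (2.23 against 2.56) and for Aqp9 (-0.62 against -0.69). These 4 genes kept their calls.

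Aqp9 (1368621_PM_at), the channel that liver normally uses, was bright at every dose and declined. Its lowest, median and highest level was 9.74, 10.00 and 10.16 in vehicle livers, 9.77, 9.94 and 10.19 in 0.1 mg/kg livers, 9.23, 9.68 and 9.94 in 1 mg/kg livers, and 8.77, 9.34 and 9.76 in 10 mg/kg livers. On the deposited scale the highest 10 mg/kg liver was just above the lowest vehicle liver, and after quantile normalization the groups did not overlap. Aqp9 fell by 0.69 on the log2 scale at 10 mg/kg (SE 0.09; limma adjusted p = 2.84e-08) and by 0.33 at 1 mg/kg (SE 0.09; limma adjusted p = 0.00343). After quantile normalization it fell by 0.98 and 0.50 at those doses. At 0.1 mg/kg the change was -0.02, with a 95% interval of -0.21 to 0.16. The change at 1 mg/kg was -0.33 in replicates 1 to 4 and in replicates 5 to 10. Of 6 macrophage markers, 5 also fell at 10 mg/kg, where 7.69% of all genes fell. Their list mean was 5.85 to 6.87 over the 10 mg/kg livers and 6.53 to 7.32 over vehicle livers. The part of these markers in the change of Aqp9 was not tested.

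Because each array carries both channels, their log2 difference is free of a shift of the whole array. A shift that differs between dim and bright probe sets would remain in it. Set to a vehicle mean of 0, the Aqp7 over Aqp9 ratio ran from 4.94 to 6.81 at 10 mg/kg, against -0.22 to 0.32 in vehicle livers. The mean difference was 5.74 (SE 0.18), a 53.4-fold shift, and a permutation test gave an adjusted p of 3.6e-05 over 9 ratio tests. That is the value for the smallest p the 100000 resamples can give. Over the 1 mg/kg livers the ratio ran from 1.05 to 3.67 and the mean difference was 2.26 (SE 0.25; permutation adjusted p = 3.6e-05). The Aqp3 over Aqp9 ratio gave 5.71 at 10 mg/kg (SE 0.38) and 2.35 at 1 mg/kg (SE 0.44), with the same permutation adjusted p. All 10 livers at 1 mg/kg and all 10 at 10 mg/kg exceeded all 10 vehicle livers in both channel ratios. At 0.1 mg/kg the mean differences were -0.00 for Aqp7 and -0.02 for Aqp3 (permutation adjusted p = 0.991 and 0.942). Since Aqp7 and Aqp3 were dim in vehicle livers, the size of these shifts shares the limit given for their folds.

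**Figure D2:**
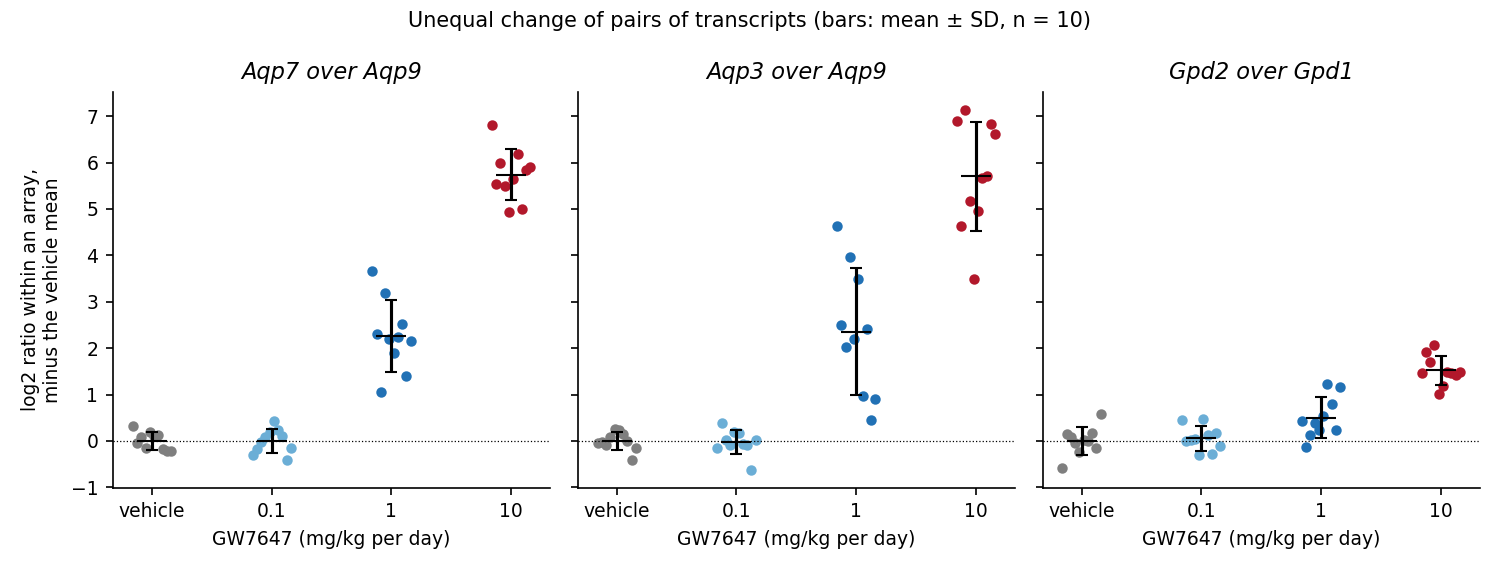
Log2 ratio of 2 transcripts within each array, minus the vehicle mean, by dose in mg/kg per day (points are rats, bars mean ± SD, n = 10). Both channel ratios clear the vehicle livers from 1 mg/kg, and Gpd2 over Gpd1 does so at 10 mg/kg, where it runs from 1.01 to 2.07.

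Gpd2, the mitochondrial dehydrogenase, rose more than its cytosolic partner. Its brighter probe set (1387670_PM_at) had a lowest, median and highest level of 3.71, 4.17 and 4.62 in vehicle livers, 3.93, 4.23 and 4.50 in 0.1 mg/kg livers, 4.47, 5.22 and 6.19 in 1 mg/kg livers, and 6.13, 6.64 and 7.52 in 10 mg/kg livers. The 1 mg/kg livers touched the vehicle range at their lower end, and the 10 mg/kg livers were all above it. The rise was 2.56 on the log2 scale at 10 mg/kg (SE 0.16; 5.90-fold; limma adjusted p = 7.12e-17), position 53 of 13438, and 4.82-fold after quantile normalization. The rise at 1 mg/kg was 1.14 (SE 0.16; 2.20-fold; limma adjusted p = 4.11e-07), made up of 0.75 in replicates 1 to 4 and 1.39 in replicates 5 to 10. The dimmer probe set (1369666_PM_at) averaged 5.25 ± 0.36 at 10 mg/kg and 3.22 ± 0.38 in vehicle livers, a rise of 2.03 (limma adjusted p = 8.33e-14), and rose by 1.07 at 1 mg/kg. The brighter set changed by 0.06 at 0.1 mg/kg, with a 95% interval of -0.26 to 0.39.

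Gpd1 was already bright in vehicle livers and rose within narrow groups. Its brighter probe set (1371363_PM_at) had a lowest, median and highest level of 10.63, 10.74 and 10.89 in vehicle livers, 10.52, 10.79 and 10.93 in 0.1 mg/kg livers, 11.02, 11.46 and 11.56 in 1 mg/kg livers, and 11.61, 11.75 and 12.05 in 10 mg/kg livers. On the deposited scale every 1 mg/kg liver was above every vehicle liver and every 10 mg/kg liver above every 1 mg/kg liver; after quantile normalization the 1 mg/kg livers overlapped both the vehicle and the 10 mg/kg livers. The rise was 1.04 at 10 mg/kg (SE 0.07; 2.06-fold; limma adjusted p = 2.53e-16), or 1.72-fold once quantile normalized, and 0.64 at 1 mg/kg (SE 0.07; 1.55-fold; limma adjusted p = 1.20e-09). Its order among all genes, 416 at 10 mg/kg, was far below those of Aqp7, Aqp3 and Gpd2. The dimmer probe set (1369560_PM_at) averaged 7.70 ± 0.19 at 10 mg/kg and 6.23 ± 0.22 in vehicle livers, a rise of 1.47 (2.76-fold; limma adjusted p = 1.57e-14). The Gpd2 over Gpd1 ratio was higher by 1.52 at 10 mg/kg (SE 0.14; 2.87-fold; permutation adjusted p = 3.6e-05) and by 0.50 at 1 mg/kg (SE 0.17; permutation adjusted p = 0.0111). The 1 mg/kg shift was 0.20 in replicates 1 to 4 (permutation adjusted p = 0.393) and 0.70 in replicates 5 to 10. It was 0.46 when each gene's probe sets were averaged (permutation adjusted p = 0.0572). The 10 mg/kg shift was also smaller with averaged probe sets, 1.04 in place of 1.52, and kept its call. The size of the ratio shift therefore depends on the choice of probe set.

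Gk, the kinase between the channels and the dehydrogenases, gave different answers on its 2 probe sets. The brighter one (1391661_PM_at) had a lowest, median and highest level of 8.20, 8.97 and 9.49 in vehicle livers, 8.66, 8.84 and 9.17 in 0.1 mg/kg livers, 8.66, 8.96 and 9.57 in 1 mg/kg livers, and 8.50, 9.06 and 9.58 in 10 mg/kg livers. The groups overlapped at every dose. Its change at 10 mg/kg was 0.11, with a 95% interval of -0.15 to 0.37 (limma adjusted p = 0.468), and -0.20 after quantile normalization (limma adjusted p = 0.215). The dimmer one (1387491_PM_at) averaged 6.52 ± 0.34 in vehicle livers, 6.55 ± 0.23 in 0.1 mg/kg livers, 6.86 ± 0.22 in 1 mg/kg livers and 7.24 ± 0.17 in 10 mg/kg livers. It rose by 0.71 at 10 mg/kg (SE 0.11; 1.64-fold; limma adjusted p = 5.74e-07) and by 0.39 after quantile normalization (limma adjusted p = 0.00211). Its change of 0.34 at 1 mg/kg passed on the deposited scale (limma adjusted p = 0.0135) and not after quantile normalization (0.08, limma adjusted p = 0.626). The difference between the probe sets within an array, dimmer minus brighter, was -1.81 ± 0.17 at 10 mg/kg and -2.41 ± 0.13 in vehicle livers. This shift of 0.60 had a permutation adjusted p of 6e-05 over 3 doses, in a comparison chosen after the values were seen.

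**Figure D3:**
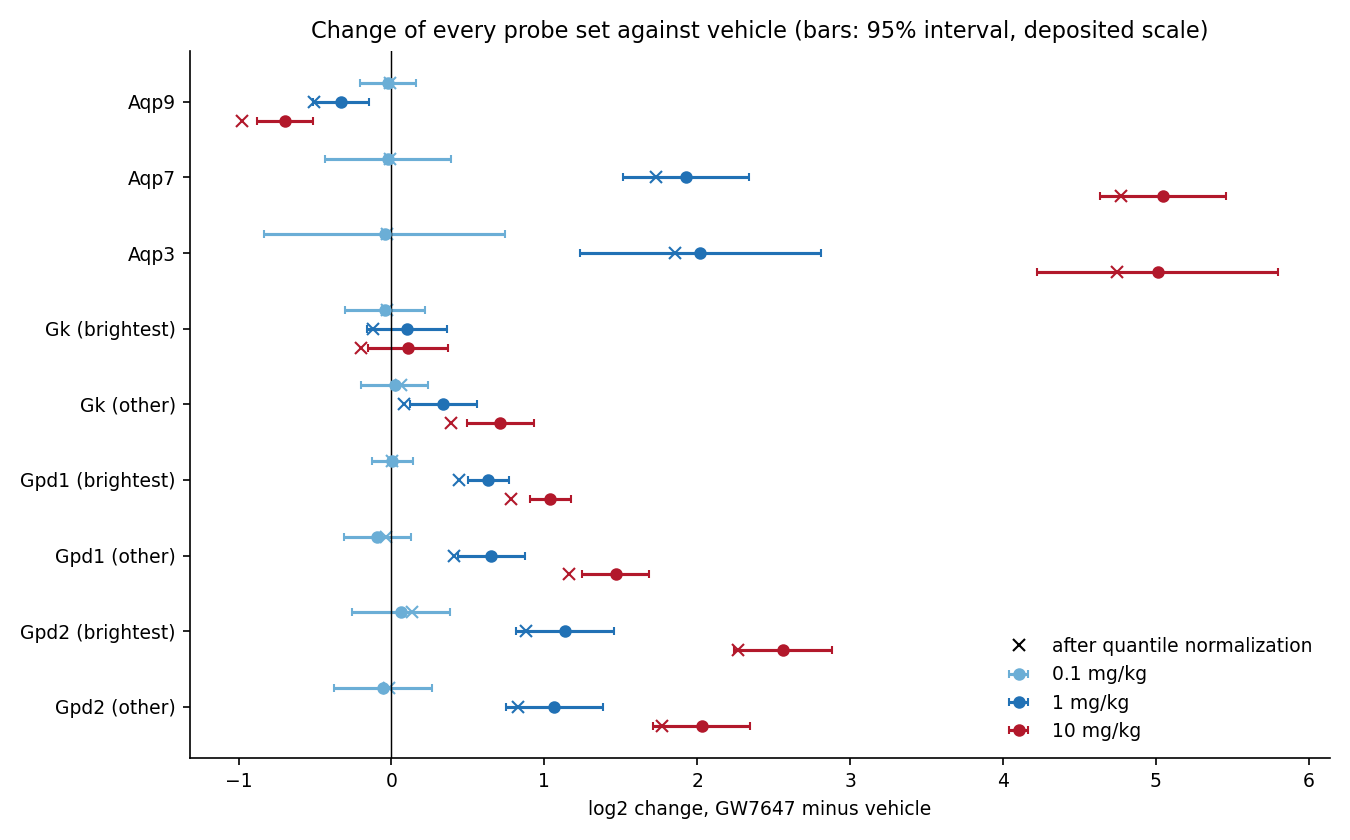
Log2 change of each of the 9 probe sets, GW7647 minus vehicle, at 0.1, 1 and 10 mg/kg (circles with 95% intervals on the deposited scale, crosses after quantile normalization). The intervals at 0.1 mg/kg all include 0, and at 10 mg/kg every probe set but Aqp9 and the brighter one of Gk lies to the right of 0 on both scales.

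Counted by probe sets on both scales, 7 of 9 rose and 1 fell at 10 mg/kg, against 18.2% and 5.86% of all probe sets, and 6 rose and 1 fell at 1 mg/kg, against 9.13% and 3.03%. In Aqp3, Aqp7, Gpd1 and Gpd2, every 10 mg/kg liver was above every vehicle liver on both scales, as in 3.63% of all genes. In 1 mg/kg livers this held on both scales for Aqp7 alone among the 6, and for 1.3% of all genes. The smallest unadjusted p of limma at 0.1 mg/kg among the 6 genes was 0.689, so 0 of them passed even without adjustment.

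Between neighbouring doses the same 5 genes moved. From 0.1 to 1 mg/kg 4 rose and Aqp9 fell, where 10.5% of all genes rose and 2.95% fell. From 1 to 10 mg/kg 4 rose and Aqp9 fell again, against 8.55% and 5.98%. The second step was 3.12 for Aqp7 (limma adjusted p = 7.30e-15), 2.99 for Aqp3 (limma adjusted p = 2.39e-07), 1.42 for Gpd2 (limma adjusted p = 1.00e-08) and 0.40 for Gpd1 (limma adjusted p = 1.78e-05). It was -0.36 for Aqp9 (limma adjusted p = 0.00245). The share of the 10 mg/kg log2 change already present at 1 mg/kg was 44.3% for Gpd2, 47.9% for Aqp9 and 61.1% for Gpd1. After quantile normalization it was 38.8% for Gpd2, 51.7% for Aqp9 and 56.6% for Gpd1, with no test of their order. Over the whole dose course, limma's F test called the same 5 genes, with adjusted p-values from 6.00e-24 for Aqp7 to 1.81e-08 for Aqp9, and 0.595 for the brighter Gk probe set; 34.2% of all genes passed on both scales.

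Aqp7 and Aqp3 are neighbours on rat chromosome 5 in the RefSeq annotation, with only a pseudogene between them. Nfx1, next on the Aqp7 side, changed by -0.12 at 10 mg/kg as deposited and by -0.43 once quantile normalized (limma adjusted p = 0.341 and 0.000316), and Nol6, next on the Aqp3 side, rose by 0.53 (limma adjusted p = 5.38e-06). Further out, B4galt1 fell by 0.57 and Ubap2 rose by 0.75, while Spink4, Bag1, Chmp5 and Ube2r2 were not called on both scales. Within a dose, Aqp7 and Aqp3 had a Pearson r of 0.73 among the 10 mg/kg livers and 0.69 among the 1 mg/kg livers, with Spearman rho of 0.67 and 0.68 (n = 10 each). The permutation p was 0.0132 and 0.0276 for r, and 0.0388 and 0.0345 for rho. Over 30 relations examined, the adjusted permutation p was 0.135 and 0.141 for r and 0.233 for both rho, so neither passed. Without the 2 livers farthest from the group median in Aqp3, r was 0.43 and 0.50, and among the 6 replicates 5 to 10 at 1 mg/kg it was 0.44.

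**Figure D4:**
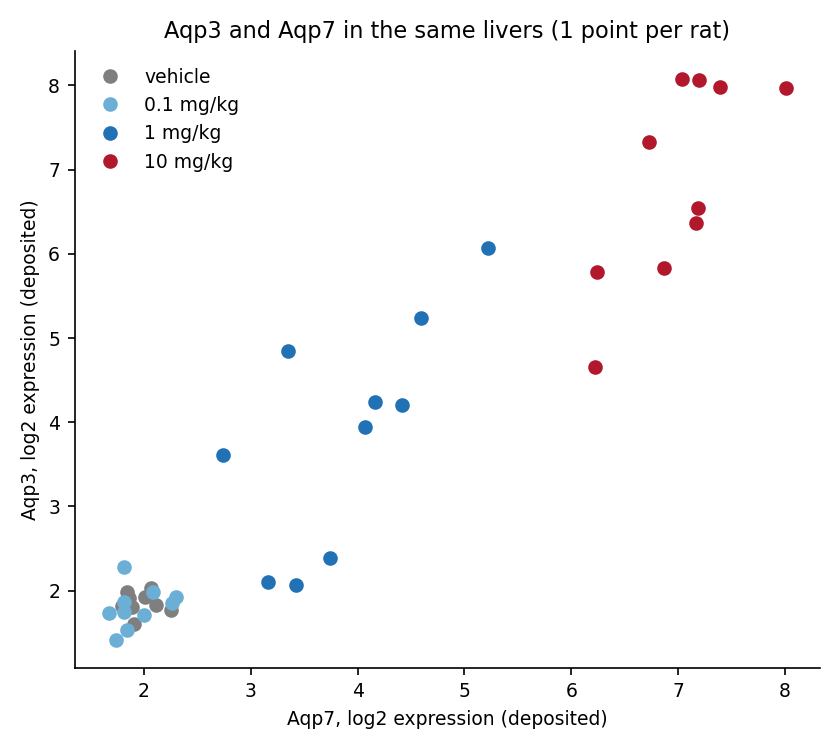
Aqp3 against Aqp7 in the same liver, both as log2 expression on the deposited scale, 1 point per rat, coloured by dose. Vehicle and 0.1 mg/kg livers lie together near 2 on both axes, 10 mg/kg livers lie above 4 on both, and 3 of the 1 mg/kg livers have raised Aqp7 with Aqp3 still between 2.06 and 2.39.

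For Gpd1 and Gpd2 the within-dose r was 0.77 among the 10 mg/kg livers and 0.69 among the 1 mg/kg livers, with rho of 0.85 and 0.71 (n = 10 each; permutation p = 0.0167 and 0.0181 for r). After adjustment over the 30 relations, the permutation p for r was 0.135 at both doses. Without the 2 livers farthest from the group median in Gpd1, r was 0.50 and 0.69. Gpd2 had an r of 0.79 with the poly-A control level at 1 mg/kg (permutation p = 0.00638, adjusted 0.135; n = 10), and that level was not separated from the relation of the enzymes. Aqp3 and Gpd2 showed r of -0.06 at 10 mg/kg and -0.43 at 1 mg/kg (permutation adjusted p = 0.875 and 0.480, n = 10).

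For each member that passed the F test of the dose course, the genes that followed it most closely over the 40 livers were looked up. This used Pearson r after quantile normalization, as a description. The 5793 candidates were other genes with a highest group mean at log2 5 or more and a symbol not starting with LOC, RGD or a digit. They were not filtered on a change with dose. For Aqp7 these were Cpt1b, the muscle-type carnitine palmitoyltransferase (r = 0.98), Cacna2d3, a calcium channel subunit (0.98), and Adig, adipogenin, a gene known from fat cells (0.98). For Aqp3 they were Myo5b, a motor of membrane recycling (0.95), Qpct, glutaminyl cyclase (0.94), and Cacna2d3 (0.94). For Gpd2 they were Gtf3c3 (0.93), Cpt1b (0.92) and Pank1, a pantothenate kinase of coenzyme A synthesis (0.92). For Gpd1 they were Ndufb1, a subunit of respiratory complex I (0.94), Mlycd, malonyl-CoA decarboxylase (0.92), and Aco1, cytosolic aconitase (0.92). For Aqp9 they were Rnase4 (0.93), Tram1, part of the secretory translocation machinery (0.92), and Pon3, a paraoxonase (0.92). Most of this likeness is between doses: with dose means removed, Aqp7 and Cpt1b had r of 0.46, Gpd2 and Cpt1b 0.05, and Aqp3 and Myo5b 0.71.

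Upstream of the channels, the lipases that free glycerol from triglyceride and lipoproteins were mostly higher. At 10 mg/kg 6 of 7 measured rose and 0 fell, where 20.4% of all genes rose, with a median log2 change of 1.51 against 0.26 for all genes. Lpl, lipoprotein lipase, averaged 7.55 ± 0.91 at 10 mg/kg and 3.69 ± 0.47 in vehicle livers, a 14.5-fold rise. Pnpla3 rose 7.98-fold, Mgll, which splits the last fatty acid from monoglyceride, 5.26-fold, and Pnpla2, adipose triglyceride lipase, 2.85-fold. Lipc, hepatic lipase, was not called at 10 mg/kg, with a change of -0.03 as deposited and -0.30 once quantile normalized (limma adjusted p = 0.633 and 3.06e-05). In 1 mg/kg livers 4 of 7 rose, where 11.1% of all genes rose, with a median of 0.69 against 0.16 for all genes.

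Downstream, of the genes that acylate glycerol 3-phosphate to triglyceride, 3 of 14 rose and 1 fell at 10 mg/kg, near the background of 20.4% and 7.69% of all genes, with a median of 0.25 against 0.26 for all genes. Dgat1 rose by 1.38 (2.60-fold), Agpat3 by 1.16 and Lpin2 by 0.75, while Dgat2, the other enzyme of the last step, fell by 0.51. Gpam, the mitochondrial acyltransferase that competes for glycerol 3-phosphate, changed by 0.27 (limma adjusted p = 0.193). Of 6 gluconeogenic genes, Pc, pyruvate carboxylase, rose by 0.66, and 2 fell: Pck1, phosphoenolpyruvate carboxykinase, by 1.47 and Slc37a4, the glucose 6-phosphate transporter, by 0.85. The list median was 0.03, against 0.26 for all genes.

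Among 5 genes of the neighbouring triose and glycerol phosphate steps, Aldoa, an aldolase, rose by 0.91 and Pgp, a phosphatase that acts on glycerol 3-phosphate, by 0.79. Tkfc, the triokinase that phosphorylates glyceraldehyde and dihydroxyacetone, fell by 1.37. The malate-aspartate shuttle, the other route for cytosolic reducing equivalents, had 2 of 7 genes higher and 2 lower at 10 mg/kg, with a median of 0.18. Beside this list and the triose steps, 20.4% of all genes rose and 7.69% fell at this dose, with a median of 0.26. Mdh2 rose by 0.92 and Got2 by 0.52, both mitochondrial enzymes, and Slc25a12, an aspartate-glutamate carrier, fell by 0.85 and Got1 by 0.32. Slc25a13, the other such carrier on the list, was not called. It changed by -0.19 as deposited and -0.46 once quantile normalized (limma adjusted p = 0.0861 and 9.76e-05). After quantile normalization the list medians at 10 mg/kg were 1.20 for the lipases, -0.04 for acylation, -0.21 for gluconeogenesis, -0.00 for the triose steps and -0.10 for the malate-aspartate shuttle.

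Of 9 other aquaporins, 0 rose and 1 fell at 10 mg/kg, where 20.4% of all genes rose and 7.69% fell. The aquaporin that fell was Aqp1, the water channel of vessels and bile ducts, by 0.52 (limma adjusted p = 0.0326). Aqp8, a hepatocyte water channel, changed by -0.25 as deposited and -0.52 once quantile normalized (limma adjusted p = 0.0573 and 0.000401), and Aqp11 by 0.56, which did not pass after quantile normalization (limma adjusted p = 0.0768). Among 14 genes listed as PPAR-alpha targets, 3 rose at 0.1 mg/kg and all 14 at both higher doses. Of all genes, 0.0893% were called in either direction at 0.1 mg/kg, and 11.1% rose at 1 mg/kg. The median change of the 14 at 10 mg/kg was 2.89, between the values of Gpd2 and the 2 rising channels. Acot1, an acyl-CoA thioesterase, was above the second-highest nonspecific control in 0 of 10 vehicle livers. At 10 mg/kg it was at least 625-fold higher than that control and at least 105-fold higher than the highest one. The fitted log2 change was 6.25 for Cpt1b, which was also dim in vehicle livers (2.29 ± 0.10), 4.85 for Vnn1, a pantetheinase, and 4.54 for Crat, carnitine acetyltransferase.

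**Figure D5:**
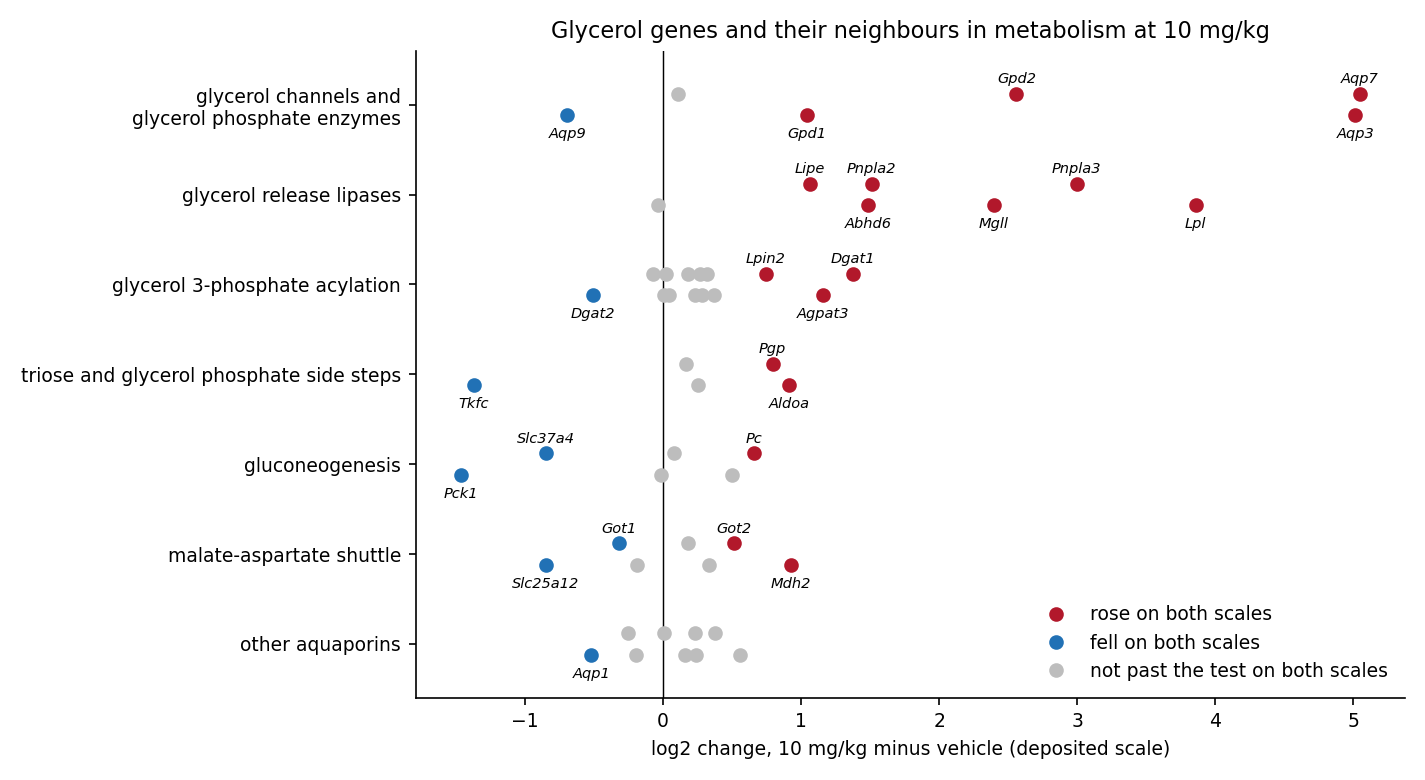
Log2 change at 10 mg/kg minus vehicle (deposited scale) for the glycerol genes and 6 lists around them; each point is 1 gene, red for rose and blue for fell on both scales, grey for neither. The lipases, with 6 of 7 risen, and 4 of the glycerol genes lie to the right, and the acylation genes gather near the all-gene median of 0.26.

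Aqp7 is a fat-cell gene, so adipocyte markers were set beside it. At 10 mg/kg 2 of 7 measured markers rose, Adipoq and Lipe, and 0 fell, where 20.4% of all genes rose and 7.69% fell. Adipoq, adiponectin, averaged 2.37 ± 0.24 at 10 mg/kg and 1.88 ± 0.15 in vehicle livers, and Plin1, perilipin of fat droplets, 2.29 ± 0.14 at 10 mg/kg and 2.37 ± 0.21 in vehicle livers, so all these means were under the arrays' medians. Fabp4, the fatty acid binding protein of fat cells, averaged 3.14 ± 1.02 at 10 mg/kg and 2.45 ± 0.47 in vehicle livers, and did not pass after quantile normalization (limma adjusted p = 0.226). Cfd, adipsin, the brightest of the list, averaged 6.53 ± 0.72 at 10 mg/kg and 6.65 ± 0.37 in vehicle livers and was not called. Adig, named above for its likeness to Aqp7 and not on this list, had a log2 change of 5.80 (5.53 after quantile normalization). Lipe, hormone-sensitive lipase, is also among the lipases above. Of the 7, 4 were under the array median at 10 mg/kg and 5 in vehicle livers, Lep and Tshr among them. The list mean per liver was 3.02 to 4.06 at 10 mg/kg and 2.81 to 3.16 in vehicle livers. The liver with the highest mean, replicate 1 at 10 mg/kg, also had the highest Aqp7 of its group. Without it, an alternative chosen after seeing the data, the change was 4.93 for Aqp7 and 4.89 for Aqp3. Of 6 bile duct markers, Epcam rose by 1.26 and Sox9 by 0.45, a dim gene, and Spp1 fell by 0.64; their part in the rise of Aqp3, an epithelial channel, was not tested. Of 7 hepatocyte markers 0 rose and 2 fell at 10 mg/kg, of 3 erythroid markers 1 rose and 0 fell. Of 7 endothelial and stellate markers 0 rose and 1 fell. All these counts stand beside 20.4% of all genes risen and 7.69% fallen at this dose.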

How the data were processed

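Per the submitters' processing notes the authors used GCRMA and Partek, with no version given in the sources used here. They deposited log2 expression values of 31139 probe sets for 40 arrays, 1 array per rat. Of these, 97 control probe sets were left out. A gene was its brightest probe set with a single symbol, updated through its Entrez number. limma 3.58.1 (R 4.3.3) fitted 4 groups with lmFit and eBayes over 13438 genes (36 residual degrees of freedom), and again over 31042 probe sets, with Benjamini-Hochberg adjustment at 0.05, on the deposited values and after quantile normalization. Ratios within an array were tested with 2-sided permutation tests of 100000 resamples (scipy 1.17.1). The number of arrays limits the precision. No probe-level intensities were used. Genes named are the 6 members and all their probe sets, up to 4 genes of each pathway list with the largest change at 10 mg/kg among those called on both scales, and the 3 genes most like each member; neighbours, cell markers and uncalled genes beside them were named after their values were seen. Members and lists were chosen with earlier results of these data known. Alternatives were other scalings, a filter on dim probe sets, other choices of probe set, subsets of arrays, array weights and covariates. Replicate numbers were not used to pair the rats in the main tests.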

Additional observations from a re-analysis of the deposited data

Results flagged for a closer look

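The dimmer Gpd1 probe set (1369560_PM_at) had a value of 6.78 in vehicle replicate 1, set apart from the other 9 vehicle livers, whose median with it was 6.17. It was the only one of 36 groups of 10 livers, over the 9 probe sets, in which the highest or lowest liver stood this far from the rest, and chance alone marks about 1 group in 20. The brighter Gpd1 probe set showed no such gap in that group.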

How the results depend on the processing

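The count of members called stayed between 5 and 6 under the alternatives run at 1 and 10 mg/kg, over the steps and over the dose course, and at 0 for 0.1 mg/kg; the sixth was Gk. No direction of a called value reversed. The Gpd2 over Gpd1 ratio at 1 mg/kg lost its call with averaged probe sets (0.46, permutation adjusted p = 0.0572) and with replicates 1 to 4 only (0.20, permutation adjusted p = 0.393); the second rests on 4 arrays. On the deposited scale Gk passed with its most variable probe set (0.34 for 1 mg/kg, which did not pass after quantile normalization, and 0.71 for 10 mg/kg, which did), and for 10 mg/kg with averaged probe sets (0.41). With the replicate number as a block, 5 members were called at each of the 2 higher doses and no member's call changed. Same-numbered livers correlated at a mean of 0.05, with 17 of 60 pairs over 0.1. Livers of other numbers correlated at a mean of -0.005, with 104 of 540 pairs over 0.1. The main tests treated the rats as unpaired. Counts over all genes moved more. At 10 mg/kg 8626 genes passed on the deposited scale, 4022 with arrays shifted to the hybridisation controls and 3881 with a filter at a log2 level of 5. For 1 mg/kg, 5592 passed, and 3106 after quantile normalization, 1737 with the hybridisation controls, 3175 with the filter and 3620 with replicates 1 to 4 only. For 0.1 mg/kg, 13 passed, and 7 with the hybridisation controls or with only the groups compared. From 0.1 to 1 mg/kg 6504 passed, against 2111 to 4274 under 5 alternatives; from 1 to 10 mg/kg 4109, against 1151 to 2462 under 4; over the dose course 9538, against 4200 and 4453. The cause was not tested. Signal near that of the nonspecific controls limits Aqp7 and Aqp3 in vehicle and 0.1 mg/kg livers.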
